A study of Homo sapiens with 24 samples.

Results

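The hormone-deprived baseline of 2 prostate cancer cell lines, LNCaP and VCaP, was compared by the rank that each gene took within its own array. The comparison used 6 of the 24 arrays of the series, all of the control arrays without androgen, chosen by their group labels and not by any measured value. The first group was LNCaP, given a control short hairpin RNA (shControl) and ethanol (EtOH) as vehicle, on 3 arrays labelled A, B and C. It was set against VCaP, given a control small interfering RNA (siControl) and the same vehicle, also on 3 arrays. According to the labels, cells of both lines spent 2 days in serum depleted of hormone that began 24 hours after RNA interference, and then 16 hours with vehicle. The other 18 arrays carried a knockdown of ETV1 in LNCaP or of ERG in VCaP, 10 nM of the androgen dihydrotestosterone (DHT), or both, and were used only to see whether differences between the lines recurred. The design names 3 biological replicates per group. The treatment label of the LNCaP controls reads siControl where their titles read shControl, and the titles were followed. Because line and RNA interference reagent change together, and the lines may have been processed apart, these cannot be told apart in any value below.

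LNCaP was established from a lymph node metastasis and VCaP from a vertebral metastasis of prostate carcinoma, and both are luminal, androgen-responsive lines. They differ in the ETS family transcription factor that a chromosome rearrangement activates: VCaP carries the TMPRSS2-ERG fusion, in which the androgen-driven promoter of the protease gene TMPRSS2 drives ERG, and LNCaP carries a translocated ETV1 gene. Each line is 1 cancer's descendant, so a difference between them is a difference between 2 cell lines and not between tumour classes.

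Each of the 54675 probe sets of an Affymetrix HG-U133 Plus 2.0 array was given its percentile rank on that array, from 0 for the dimmest to 100 for the brightest. A gene was represented by the probe set with its highest mean rank over the 6 arrays. Probe sets at or above the 50th percentile in all 3 arrays of at least 1 line were kept, which left 27340 probe sets and 12303 of 19775 genes. Ranks correlated at r = 0.966 to 0.969 between LNCaP arrays, 0.969 to 0.970 between VCaP arrays and 0.935 to 0.941 across the lines, over all probe sets. The median SD of a gene's rank was 0.54 percentile points in LNCaP and 0.49 in VCaP (n = 3 each). Median intensity was 44.6 to 44.8 on LNCaP arrays and 49.4 to 50.9 on VCaP arrays, and 628 to 688 probe sets per LNCaP array had the value 1, against 6 to 11 per VCaP array. Ranks set that difference in scale aside but cannot order probe sets that share the value 1. The ratio of 3' to 5' signal of GAPDH, a measure of RNA integrity, was 1.11 ± 0.025 in LNCaP and 1.05 ± 0.013 in VCaP (SD, n = 3 each; exact two-sided permutation p = 0.1, the smallest that 3 against 3 arrays allow), and that of ACTB was 3.12 ± 0.35 in LNCaP and 3.31 ± 0.32 in VCaP (exact p = 0.6). Their part in the differences below was not tested.

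Luminal identity was visible in both lines. Of 12 luminal markers measured, 11 reached the 50th percentile in LNCaP and 12 in VCaP, and their summed intensity ran from 30870 to 32194 in LNCaP and from 39262 to 41405 in VCaP. Basal markers summed to 138 to 146 in LNCaP and 126 to 174 in VCaP, endothelial markers to 189 to 242 in LNCaP and 181 to 218 in VCaP, and fibroblast markers to 642 to 670 in LNCaP and 458 to 503 in VCaP. Leukocyte markers summed to 145 to 177 in LNCaP and 479 to 557 in VCaP, with 1 of 5 at or above the 50th percentile in each line. Lysozyme (LYZ) alone gave 3.3 to 10.8 in LNCaP and 315 to 384 in VCaP. Neuroendocrine markers had the largest ratio between the lines, at 501 to 561 in LNCaP and 2255 to 2986 in VCaP, with 1 of 8 at or above the 50th percentile in LNCaP and 6 of 8 in VCaP.

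Most genes held nearly the same rank in both lines, and the exceptions lay almost entirely on one side. The difference of mean ranks, LNCaP minus VCaP, had a median of 0.52 percentile points over the 12303 genes, with 5% of genes under -11.3 and 5% over 6.51 points, and 93.1% of genes differed by under 10 points. A gene was called different when limma, a linear model with moderated variances, gave it an adjusted p under 0.05 and its mean ranks differed by at least 20 points. By that rule 5 genes were higher in LNCaP (0.0406% of genes tested) and 430 were lower in LNCaP (3.5%). Adjusted p alone, with no smallest difference, called 4369 genes higher in LNCaP (35.5%) and 2901 lower (23.6%). The arrays of the lines did not overlap for 67.5% of genes tested, with every LNCaP array above every VCaP array for 41% and below for 26.5%. Arrays that do not overlap are thus common among all genes, and the counts below are those with at least 20 points unless another rule is named.

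**Figure D1:**
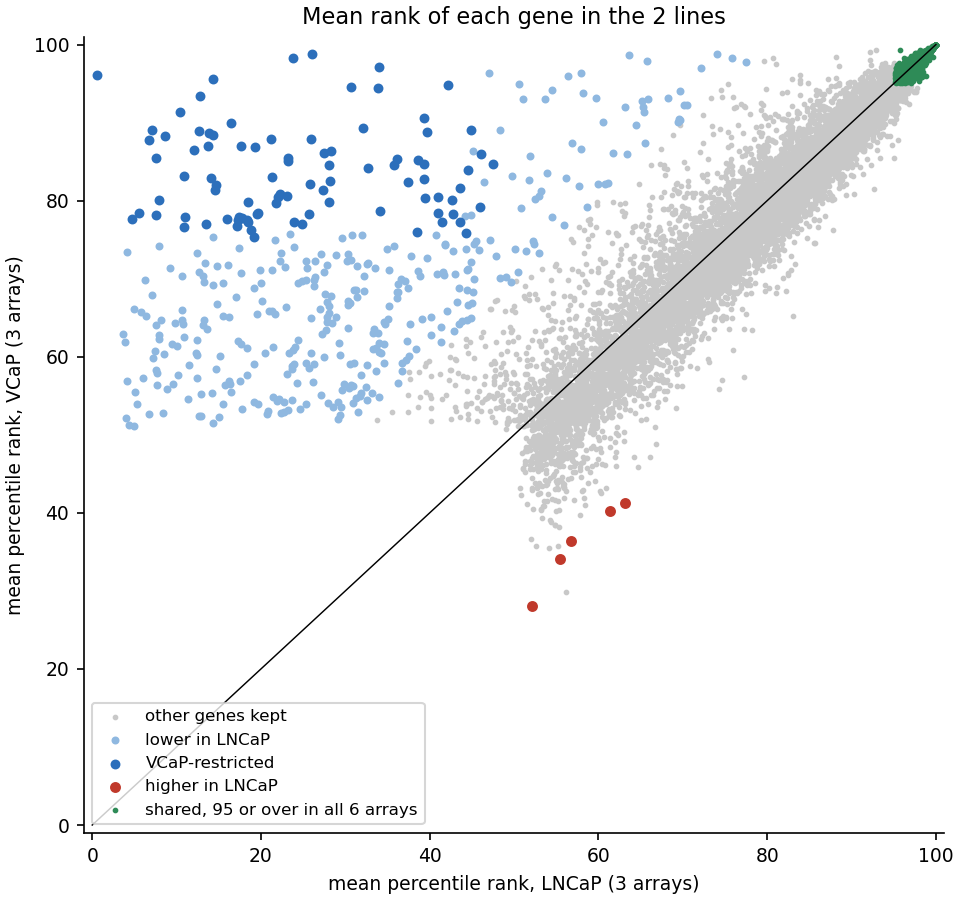
Mean percentile rank of each of the 12303 genes kept, over 3 LNCaP arrays (horizontal axis) and 3 VCaP arrays (vertical axis), with the line of equal ranks drawn. The 90 VCaP-restricted genes and the other genes called lower in LNCaP fill the upper left, the 5 genes called higher in LNCaP lie 20.4 to 24.0 points under the line, and the lower right is empty.

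No gene was restricted to LNCaP. A gene was called restricted to a line when it lay at or above the 75th percentile in all 3 of that line's arrays and below the 50th in all 3 of the other's, and by that rule 0 genes were LNCaP-restricted and 90 were VCaP-restricted. The same count made in the other matched arrays gave 0 LNCaP-restricted genes each time, and 85 VCaP-restricted genes with ETV1 or ERG lowered, 71 with DHT, and 68 with both. These matched sets share the lines and any processing that goes with them.

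The one-sidedness was also seen in the intensities themselves. Of the 7638 genes at or above the 75th percentile in all 3 LNCaP arrays, the one that fell lowest in VCaP was HTR2C, a serotonin receptor gene, whose mean rank there was 57.3 and whose intensity in VCaP was 0.287 of that in LNCaP. Only 2 of these 7638 genes had a ratio of VCaP over LNCaP intensity under 0.3, and 0 had one under 0.1. The other way round, 7607 genes lay at or above the 75th percentile in all 3 VCaP arrays. For 209 of them (2.75%) the ratio of LNCaP over VCaP intensity was under 0.3, for 122 it was under 0.1, and for 96 the mean rank in LNCaP was under 50. Among genes at or above the 95th percentile in LNCaP, 1666 in all, the lowest mean rank in VCaP was 87.8, for the sialyltransferase gene ST3GAL1. Among the 1669 genes that high in VCaP, 6 had a mean LNCaP rank under 50. Counting probe sets in place of genes gave the same picture, with 3 of 13229 probe sets high in LNCaP under the ratio of 0.3 in VCaP, against 356 of 13223 probe sets high in VCaP under it in LNCaP. The lowest ratio among those probe sets high in LNCaP was 0.248. In the other matched arrays the lowest ratio of VCaP over LNCaP intensity was 0.184 (S100P) with ETV1 or ERG lowered, 0.144 (RLN1) with DHT and 0.194 (PPFIA2) with both, and 2, 10 and 3 genes were under 0.3 there and 0 under 0.1. What sets this one-sidedness was not tested. Whether the VCaP-labelled arrays hold RNA of VCaP cells alone was not tested either, and the count of 0 LNCaP-restricted genes is to be read with that limit.

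**Figure D2:**
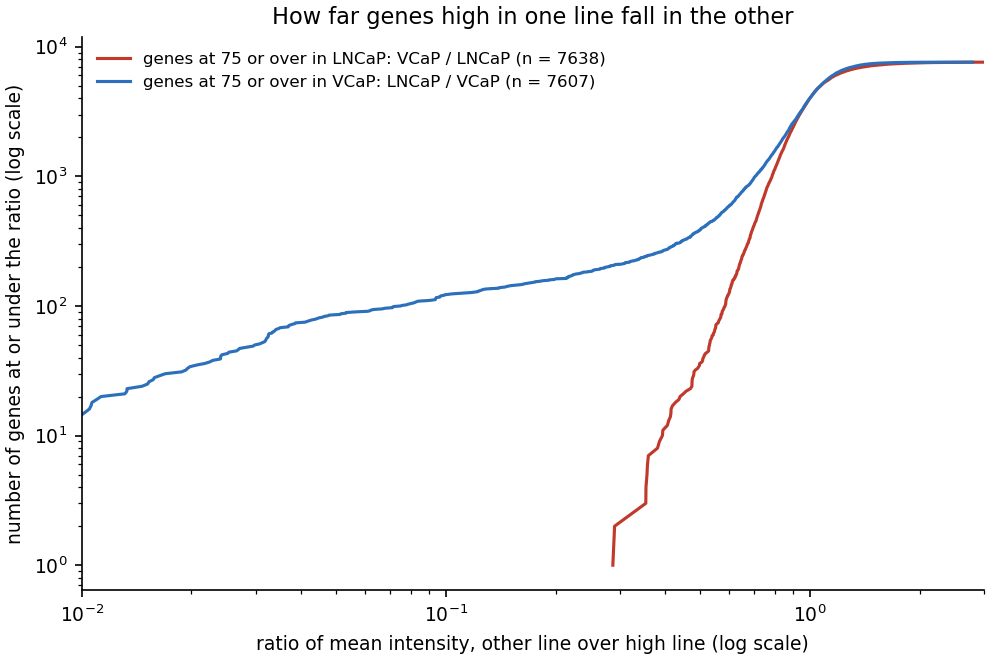
Cumulative number of genes (vertical axis, log scale) at or under a ratio of mean intensity, other line over the line in which the gene is high (horizontal axis, log scale), for 7638 genes at or above the 75th percentile in all LNCaP arrays and 7607 genes in all VCaP arrays. The curve for genes high in LNCaP ends at 0.287, while that for genes high in VCaP goes on to the left edge. Ratios under 0.01 are not drawn.

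The 90 VCaP-restricted genes had a median rank of 23.1 in LNCaP and 82.7 in VCaP, and the smallest difference among them was 31.6 points. They were chosen by these ranks, so the values are a description. The widest gap was that of TMEM71, a gene for a membrane protein, which ranked 0.632, 0.595 and 0.579 in LNCaP and 96.1, 96.3 and 95.8 in VCaP. Its intensity was 1 on all 3 LNCaP arrays, a value that 628 to 688 probe sets shared on each of them, and 2443, 2596 and 2226 on VCaP arrays. No fold change is given for it, since so common a value holds no order. CNN3, which encodes an actin-binding calponin, ranked 5.71, 9.51 and 5.87 in LNCaP and 88.6, 89.5 and 88.9 in VCaP. ADIRF, a small adipogenesis regulatory factor, ranked 15.6, 15.5 and 12.01 in LNCaP and 95.6, 95.4 and 95.7 in VCaP. Both were among the dimmest probe sets of every LNCaP array and the brighter ones of every VCaP array. ELOVL2, an elongase of polyunsaturated fatty acids, averaged 6.78 ± 2.40 in LNCaP and 87.8 ± 0.266 in VCaP (SD, n = 3 each). PAPSS2, which makes the sulfate donor of sulfotransferases, averaged 13.8 in LNCaP and 88.6 in VCaP. The LNCaP arrays of ELOVL2 were more spread than its VCaP arrays, and the groups stood far apart.

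Some of the 90 genes ranked among the brightest of the VCaP arrays. ITM2A, which encodes a membrane protein, ranked 26.7, 23.7 and 21.1 in LNCaP and 98.2, 98.3 and 98.3 in VCaP. Its intensities were 16.6, 14.5 and 13.1 in LNCaP, against 4202, 4393 and 4315 in VCaP. CSRP2, a LIM domain protein gene, ranked 23.4, 25.9 and 28.9 in LNCaP and 98.7, 98.7 and 98.8 in VCaP. SHH, the Sonic hedgehog ligand, averaged 33.9 ± 12.9 in LNCaP and 97.2 ± 0.132 in VCaP, and its 3 LNCaP arrays spread from 22.4 to 47.8. FABP5, a fatty acid carrier, averaged 33.9 in LNCaP and 94.4 in VCaP. Other signalling genes of the set were the Wnt ligand WNT2 (18.5 in LNCaP and 79.8 in VCaP), the BMP antagonist GREM1 (14.1 in LNCaP and 82.9 in VCaP) and the transcription factor PAX5 (37.4 in LNCaP and 82.4 in VCaP). MGP, the matrix Gla protein, was the member with the lowest rank in LNCaP after TMEM71, at 4.72 ± 1.89, and averaged 77.7 ± 0.619 in VCaP.

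The promoters of ITM2A and CSRP2 are printed beside that of RPS16, a ribosomal protein gene at the top of both lines, to show the sequence at genes whose ranks lie far apart or together. Each window runs from base -250 to base 50 about the RefSeq start (GRCh38.p14), 5' to 3' on the gene's strand, with CpG dinucleotides in capitals. The windows are chrX:79367285-79367584 for ITM2A, chr12:76878970-76879269 for CSRP2 and chr19:39435900-39436199 for RPS16, all on the minus strand. CSRP2 has 2 starts in the table and the one shown is the first listed.
ITM2A: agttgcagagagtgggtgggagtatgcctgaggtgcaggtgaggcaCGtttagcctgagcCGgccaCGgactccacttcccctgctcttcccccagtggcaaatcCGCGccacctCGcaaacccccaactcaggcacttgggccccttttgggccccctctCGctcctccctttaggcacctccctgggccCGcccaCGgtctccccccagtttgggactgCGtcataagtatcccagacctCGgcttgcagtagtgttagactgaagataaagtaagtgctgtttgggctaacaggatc
CSRP2: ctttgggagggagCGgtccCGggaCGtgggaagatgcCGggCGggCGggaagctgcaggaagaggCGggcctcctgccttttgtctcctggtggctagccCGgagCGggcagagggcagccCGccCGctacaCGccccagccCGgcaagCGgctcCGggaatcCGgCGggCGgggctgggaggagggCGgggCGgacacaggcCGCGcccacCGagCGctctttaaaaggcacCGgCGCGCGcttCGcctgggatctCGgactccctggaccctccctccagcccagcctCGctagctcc
RPS16: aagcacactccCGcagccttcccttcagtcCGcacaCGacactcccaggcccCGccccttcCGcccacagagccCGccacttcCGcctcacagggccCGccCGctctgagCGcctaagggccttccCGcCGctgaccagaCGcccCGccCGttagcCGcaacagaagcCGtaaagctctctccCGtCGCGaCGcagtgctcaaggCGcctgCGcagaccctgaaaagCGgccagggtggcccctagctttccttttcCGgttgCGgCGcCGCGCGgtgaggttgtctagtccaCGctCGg
ITM2A had 11 CpGs and an observed over expected CpG ratio of 0.41, CSRP2 had 31 and 0.77, and RPS16 had 32 and 0.96. The 2 VCaP-restricted genes thus differ from each other in CpG content while their ranks are alike. None of the 3 windows held the letters TATAAA, searched as a TATA box, or CCGGAAGT, searched as an ETS core, on either strand. Among promoters of the genes tested, 5.76% held TATAAA and 8.72% held CCGGAAGT. The table matched 68 of the 90 VCaP-restricted genes (75.6%), too few for a statement on the set.

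**Figure D3:**
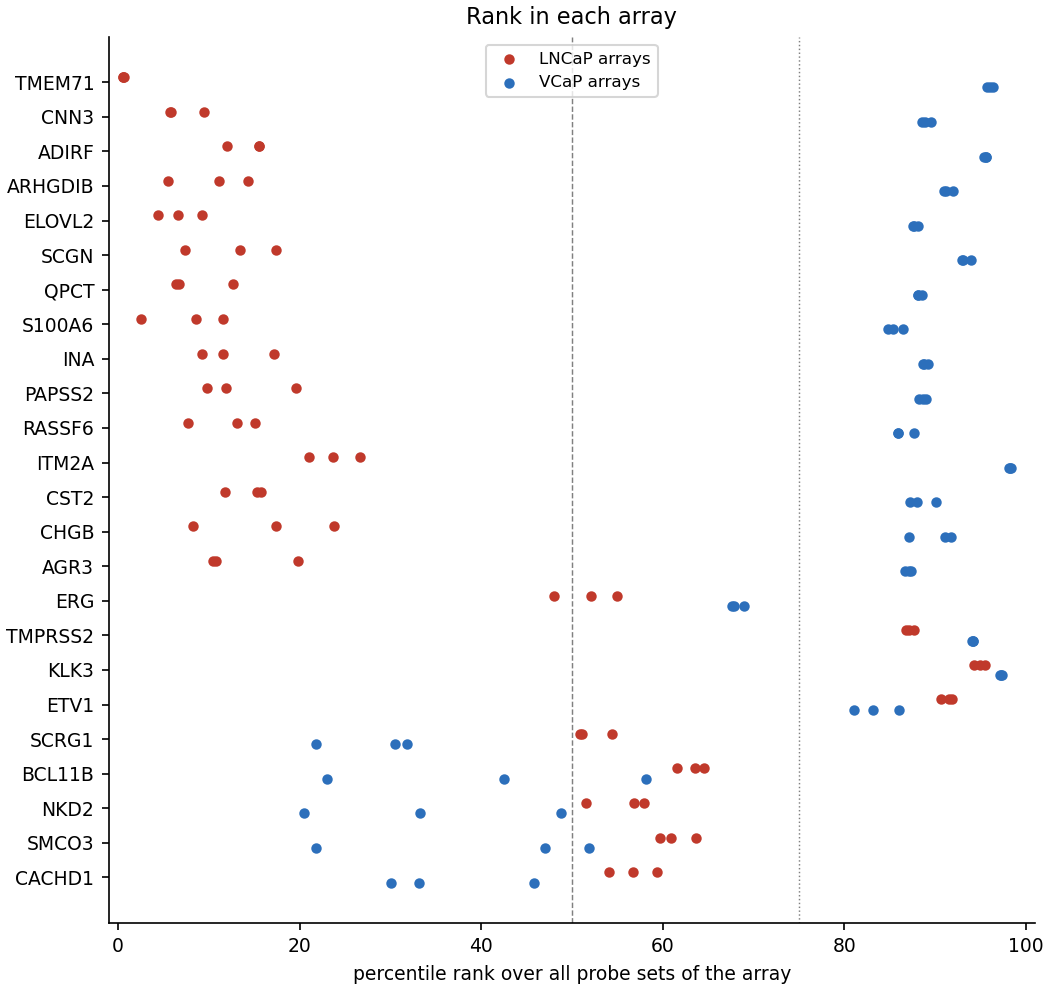
Percentile rank (horizontal axis) in each of the 3 LNCaP and 3 VCaP arrays for the 15 VCaP-restricted genes with the widest difference, then for ERG, TMPRSS2, KLK3 and ETV1, and then for the 5 genes called higher in LNCaP. Dashed and dotted lines mark the 50th and 75th percentiles, and the VCaP points of the 5 higher genes are scattered while their LNCaP points are close together.

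Other probe sets of the same genes gave a second measure on the same arrays. Of the 90 genes, 52 had 94 further probe sets, of which 48 were kept. Of those 48, 47 were called lower in LNCaP, 0 were called higher and 1 had no call, while over all genes tested 3.5% were called lower. The 47 were kept through their VCaP ranks alone, which favours a lower rank in LNCaP, so nothing is read from this count. Of all 94, 71 had the lower mean rank in LNCaP, and the 46 that were not kept went both ways. The second probe set of ITM2A averaged 17.97 in LNCaP and 97.9 in VCaP, and that of CSRP2 averaged 16.01 in LNCaP and 97.4 in VCaP. For S100A6, the further probe set averaged 12.3 in LNCaP and 12.7 in VCaP, so only 1 of its 2 probe sets showed a difference. The further probe set of SHH, which was not kept, averaged 42.3 in LNCaP and 50.9 in VCaP. That of PAX5, also not kept, went the other way, at 30.9 in LNCaP and 10.6 in VCaP.

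The difference recurred in arrays that had no part in choosing the genes. In each of the other 3 matched sets every LNCaP array was below every VCaP array for 90 of 90 genes, as it was for 26.8% of the 12303 genes with ETV1 or ERG lowered, 28.1% with DHT and 25.9% with both. The limits of 75 and 50 were met by 71 genes with ETV1 or ERG lowered, 55 with DHT and 46 with both, and by 40 in all 3. In the DHT controls, where 350 of 12187 genes were called lower in LNCaP (2.87%) and 17 higher (0.139%), 87 of the 90 were called lower and 1 was not kept. The smallest difference there was -3.58 points, for AKAP12, an A-kinase anchoring protein. AKAP12 averaged 47.5 in LNCaP and 84.8 in VCaP with EtOH, and 81.1 in LNCaP and 84.7 in VCaP with DHT. SPOCK1, a matrix proteoglycan gene, likewise averaged 46.1 in LNCaP and 86.0 in VCaP with EtOH, and 75.8 in LNCaP and 89.8 in VCaP with DHT. CSRP2 averaged 52.2 in LNCaP and 95.2 in VCaP with DHT, which took it over the limit of 50 in LNCaP. For WNT2 it was the VCaP value that was lower with DHT. WNT2 averaged 18.5 in LNCaP and 79.8 in VCaP with EtOH, and 17.1 in LNCaP and 53.8 in VCaP with DHT. ASZ1 was lower with DHT in both lines. It averaged 42.8 in LNCaP and 78.3 in VCaP with EtOH, and 27.7 in LNCaP and 50.3 in VCaP with DHT. Restriction to VCaP at baseline therefore described some genes only without androgen. Whether the line difference of these genes changed with DHT was not tested.

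**Figure D4:**
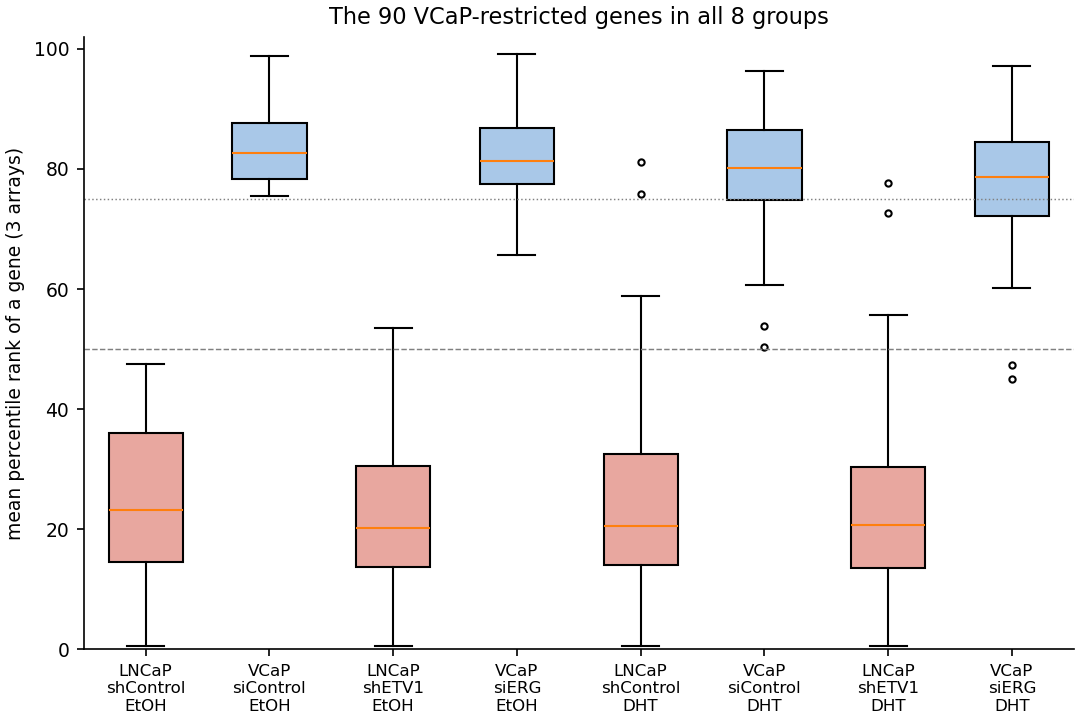
Mean percentile rank (vertical axis) of the 90 VCaP-restricted genes in all 8 groups of 3 arrays, as box plots with median, quartiles, whiskers to 1.5 times the interquartile range and outlying genes as points. Each LNCaP group stands left of its matched VCaP group, medians lie near 20 in LNCaP and near 80 in VCaP, and the high points in the LNCaP groups with DHT are AKAP12 and SPOCK1.

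Genes just inside and just outside the limit differed little. POGLUT3, the member nearest to the limit, had a lowest VCaP rank of 75.03, and FRRS1L had 75.2. CEACAM6, a cell adhesion glycoprotein of carcinomas, missed it with a lowest VCaP rank of 74.995, and PTPRN2 and SYCP2 missed it with 74.9 each.

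Several neuroendocrine genes ranked far lower in LNCaP. Of 18 listed genes on the array 11 were kept, of which 0 were called higher and 7 lower in LNCaP. All 7 passed the filter through their VCaP ranks alone, which favours a lower rank in LNCaP. Nothing is therefore read from this count beside the 3.5% of all genes tested that were lower. In RNA of whole cultures, fewer cells that express a gene and less RNA per cell cannot be told apart. The granule proteins chromogranin A and B were among them: CHGA ranked 16.2, 28.4 and 19.3 in LNCaP and 83.0, 84.8 and 81.4 in VCaP, and CHGB ranked 23.8, 17.4 and 8.27 in LNCaP and 91.8, 91.1 and 87.1 in VCaP. INSM1, a transcription factor of neuroendocrine cells, averaged 5.60 ± 6.65 in LNCaP and 78.5 ± 0.521 in VCaP. These 3 genes were also VCaP-restricted. The granins SCG2 (25.3 in LNCaP and 59.2 in VCaP) and SCG3 (7.12 in LNCaP and 67.9 in VCaP), the ubiquitin hydrolase UCHL1 (50.5 in LNCaP and 94.9 in VCaP) and the imprinted gene PEG10 (51.0 in LNCaP and 93.1 in VCaP) were the other 4. The 4 kept members with no call included DDC, aromatic amino acid decarboxylase, at 99.3 in LNCaP and 99.4 in VCaP, and the synaptotagmin SYT4 at 96.3 in LNCaP and 96.0 in VCaP. SCGN, a calcium-binding protein of neuroendocrine cells, and INA, a neuronal intermediate filament, were outside the list and VCaP-restricted, with SCGN at 12.7 in LNCaP and 93.4 in VCaP and INA at 12.7 in LNCaP and 88.9 in VCaP.

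Of 25 kept genes for secreted and surface proteins known from carcinomas, 0 were higher and 8 lower in LNCaP (all genes tested: 0.0406% higher and 3.5% lower), with a median of -5.89 points. Of the 8, 6 were kept through VCaP alone, and 4 were VCaP-restricted. CRISP3, a cysteine-rich secretory protein, ranked 38.1, 30.7 and 23.2 in LNCaP and 94.5, 94.6 and 94.6 in VCaP. AGR3, a secreted disulfide isomerase homologue, averaged 13.7 in LNCaP and 87.0 in VCaP, and NPY, neuropeptide Y, averaged 42.2 in LNCaP and 94.9 in VCaP. The calcium-binding protein S100A10 averaged 75.8 ± 0.522 in LNCaP and 98.3 ± 0.0668 in VCaP, a difference of -22.48 ± 0.320 points (SE; adjusted p 8.6e-08, limma). S100A6 averaged 7.58 in LNCaP and 85.5 in VCaP by its representative, while its further probe set, as given above, showed no such difference. SLPI, MUC13 and PSCA were the remaining called members. Of the carcinoembryonic adhesion genes, CEACAM5 averaged 28.4 in LNCaP and 64.4 in VCaP, and CEACAM6 averaged 30.8 in LNCaP and 75.6 in VCaP.

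Adhesion genes were divided. Of 15 kept, 0 were higher and 5 lower in LNCaP (3.5% of all genes tested were lower), and all 5 were kept through VCaP alone: the cadherins CDH2, CDH7 and CDH10 and the 2 CEACAM genes. N-cadherin (CDH2), which marks mesenchymal and neural cells, ranked 6.68, 31.3 and 21.2 in LNCaP and 78.3, 79.8 and 77.1 in VCaP. CDH2 was VCaP-restricted, so these values are a description. Its further probe set was not kept and averaged 33.8 in LNCaP and 53.7 in VCaP. E-cadherin (CDH1), the epithelial cadherin, averaged 99.2 in LNCaP and 98.9 in VCaP. In the mesenchymal and matrix list, 4 of 12 kept members were lower in LNCaP, all kept through VCaP alone, namely CDH2, the transcription factor SNAI2 (29.4 in LNCaP and 53.5 in VCaP), the protease MMP10 (38.6 in LNCaP and 70.9 in VCaP) and the plasminogen activator PLAT (19.2 in LNCaP and 59.1 in VCaP), and vimentin (VIM) averaged 73.9 in LNCaP and 70.4 in VCaP. The median of that list was 1.22 points, so most of its members were not lower.

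The ETS family, which defines the 2 lines, had 20 kept members and 0 calls in either direction by the representative probe sets, with a median of -0.87 points. ETV1 ranked 91.9, 91.6 and 90.7 in LNCaP and 81.1, 86.1 and 83.1 in VCaP, a difference of 7.96 ± 1.13 points (adjusted p 9.4e-04, limma) that stayed under the smallest difference required. Its intensities were 1215, 1201 and 1030 in LNCaP and 460, 707 and 537 in VCaP. By this representative probe set every LNCaP array was above every VCaP array, and yet ETV1 lay above the 80th percentile in both lines. All 5 probe sets of ETV1 had the higher mean rank in LNCaP, by 7.41 to 13.6 points. Those other than the representative averaged only 67.3 to 72.4 in LNCaP and 53.7 to 63.0 in VCaP. The probe set with 13.6 points overlapped between the lines, with VCaP arrays at 29.3, 68.6 and 63.2.

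ERG depended on the probe set. Its representative averaged 51.7 ± 3.48 in LNCaP and 68.1 ± 0.703 in VCaP (-16.39 ± 1.76 points, adjusted p 2.5e-04, limma), short of 20 points. The other 3 ERG probe sets were all called lower in LNCaP, with mean ranks of 16.3 in LNCaP and 89.9 in VCaP, 26.6 in LNCaP and 85.0 in VCaP, and 5.53 in LNCaP and 52.3 in VCaP. These 3 and the representative were kept through their VCaP ranks alone, which favours a lower rank in LNCaP. Nothing is therefore read from the 3 calls. The representative was chosen for its highest mean over both lines and is the one with the highest rank in LNCaP. TMPRSS2 averaged 87.2 ± 0.449 in LNCaP and 94.1 ± 0.0717 in VCaP, a difference of -6.96 ± 0.245 points. ETS1 averaged 56.9 in LNCaP and 45.2 in VCaP (11.76 points, adjusted p 0.0037, limma). With its VCaP mean under 50, ETS1 was kept through its LNCaP ranks alone, which favours a higher rank in LNCaP. ELF5 averaged 52.1 in LNCaP and 59.7 in VCaP. ELK4 averaged 90.9 in LNCaP and 94.1 in VCaP, and EHF 98.1 in LNCaP and 98.4 in VCaP.

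Of 21 luminal genes kept, 0 were called higher and 2 lower in LNCaP, KLK2 and KRT19 (3.5% of all genes tested were lower), and 10 lay at or above the 95th percentile in all 6 arrays, among them KRT18, CDH1, FOXA1 and ACP3, the prostatic acid phosphatase. KLK2, a kallikrein protease induced by androgen, ranked 75.5, 72.8 and 73.9 in LNCaP and 98.8, 98.8 and 98.8 in VCaP, with intensities of 258, 215 and 224 in LNCaP against 5685, 5546 and 5553 in VCaP. KRT19, a keratin of simple epithelia, averaged 30.3 in LNCaP and 66.6 in VCaP and was kept through VCaP alone. KLK3, which encodes prostate-specific antigen, averaged 94.9 ± 0.584 in LNCaP and 97.2 ± 0.149 in VCaP, a difference of -2.31 ± 0.269 points beside -24.75 ± 0.621 for KLK2. Among enzymes of androgen synthesis and clearance, 0 of 16 kept were higher and 2 were lower in LNCaP, against 3.5% lower over all genes tested. AKR1C3, which makes testosterone from androstenedione, ranked 39.8, 39.5 and 38.8 in LNCaP and 90.4, 90.5 and 91.0 in VCaP. It was kept through VCaP alone and was VCaP-restricted, so its values are a description. HSD17B6 averaged 52.4 in LNCaP and 74.4 in VCaP. Of the UGT2B glucuronosyltransferases, a family that inactivates androgens, UGT2B15 averaged 91.4 in LNCaP and 92.1 in VCaP, UGT2B17 90.3 in LNCaP and 85.5 in VCaP, and UGT2B28 76.6 in LNCaP and 68.4 in VCaP. UGT2B4 was not kept, at 10.4 in LNCaP and 37.5 in VCaP. Of 18 steroid receptors and partners 0 were called in either direction, and the glucocorticoid receptor gene NR3C1 averaged 58.7 in LNCaP and 74.2 in VCaP.

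The next lists are to be read beside the 3.5% of all genes tested that were lower in LNCaP, and each of their called genes was kept through VCaP alone. Among growth factor receptors, 0 of 26 kept were higher and 3 lower in LNCaP. The hepatocyte growth factor receptor MET averaged 37.4 ± 4.42 in LNCaP and 68.8 ± 0.652 in VCaP by its representative, but its other kept probe set averaged 52.9 in LNCaP and 51.2 in VCaP. EPHB6 averaged 43.3 in LNCaP and 67.1 in VCaP, and the TGF-beta receptor TGFBR2 averaged 42.8 in LNCaP and 63.3 in VCaP. Detoxification genes showed 0 higher and 3 lower of 27 kept: the retinaldehyde dehydrogenase ALDH1A1 (7.92 in LNCaP and 80.02 in VCaP), and the cytochromes CYP1A1 (43.5 in LNCaP and 68.8 in VCaP) and CYP1B1 (27.8 in LNCaP and 64.5 in VCaP). SPINK1, a trypsin inhibitor that marks a class of prostate tumours, was the 1 called gene of 25 tumour suppressors and oncogenes kept, at 35.8 ± 9.89 in LNCaP and 84.6 ± 1.22 in VCaP. MYC averaged 95.8 in LNCaP and 99.2 in VCaP. Among leukocyte genes LYZ, lysozyme, which secretory epithelia also make, averaged 11.01 in LNCaP and 77.9 in VCaP, while CD3E averaged 55.4 in LNCaP and 52.1 in VCaP and CSF1R 55.2 in LNCaP and 50.7 in VCaP. The interferon and antigen presentation list had 0 higher and 1 lower of 29 kept, OAS1, and the HOX list 0 and 1 of 14, HOXD4. DNA repair genes (16 kept), noncoding RNAs of the prostate (6 kept) and basal, fibroblast and endothelial genes (4, 4 and 1 kept) had 0 calls.

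Small shifts in 1 direction ran through 2 further lists without a called gene. Of 28 cell cycle genes kept, 16 were lower and 1 higher in LNCaP by adjusted p alone, against 23.6% lower and 35.5% higher over all genes, with a median of -1.56 points. The helicase subunits MCM2 to MCM7, which load at replication origins, were all lower in LNCaP by adjusted p alone, with MCM2 at 83.5 ± 1.03 in LNCaP and 90.6 ± 0.675 in VCaP. Cancer-testis antigens, germline genes that some tumours express, went the other way: 9 of 12 kept were higher and 0 lower in LNCaP by adjusted p alone, with a median of 7.13 points. Of 22 on the array, only these 12 were kept. Passing the filter through LNCaP ranks alone, as MAGEA4 did, favours a higher rank in LNCaP. How many of the 9 passed so was not counted, and nothing is read from their number. MAGEA4 averaged 58.3 ± 0.855 in LNCaP and 41.8 ± 8.09 in VCaP, and MAGEC2 averaged 69.7 ± 0.418 in LNCaP and 60.02 ± 3.35 in VCaP.

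**Figure D5:**
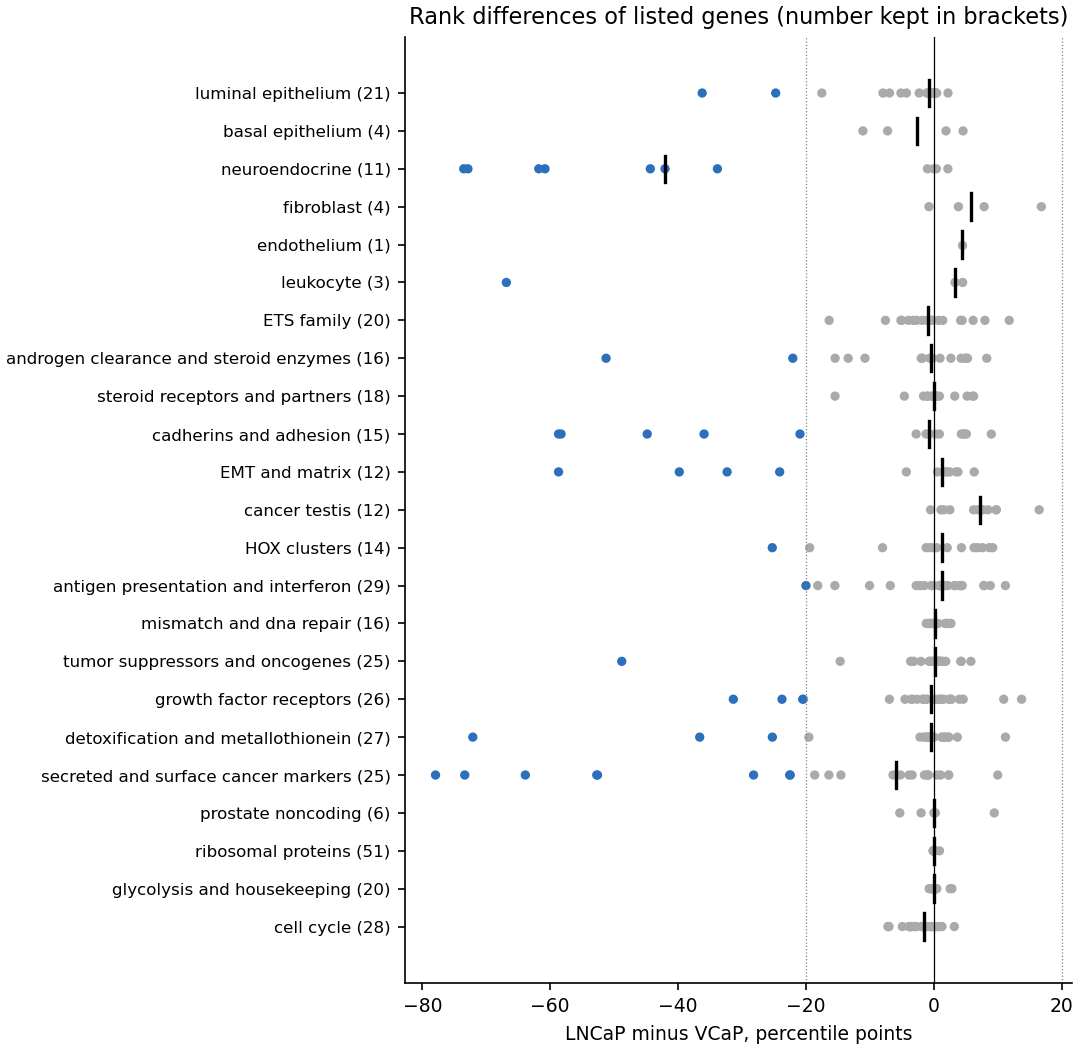
Difference of mean rank, LNCaP minus VCaP (horizontal axis, percentile points), of each kept gene in each gene list, with the number kept in brackets. Blue points were called lower in LNCaP, grey points had no call, black bars are list medians and dotted lines mark 20 points in either direction. No listed gene was called higher in LNCaP, and 7 of 11 neuroendocrine genes kept lie beyond -20 points.

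The 5 genes called higher in LNCaP were modest in rank and scattered in VCaP. All 5 passed the filter through their LNCaP ranks alone, which favours a higher rank in LNCaP. Nothing is therefore read from their calls, and their values are a description. SCRG1, first described as a scrapie-responsive gene, ranked 54.4, 50.8 and 51.1 in LNCaP and 31.9, 21.8 and 30.5 in VCaP (24.05 ± 3.87 points, adjusted p 0.0017, limma). BCL11B, a zinc finger transcription factor of T cells and neurons, ranked 63.6, 61.5 and 64.5 in LNCaP and 58.2, 42.6 and 23.0 in VCaP (21.94 ± 7.71 points, adjusted p 0.044). NKD2, an inhibitor of Wnt signalling, ranked 56.8, 51.5 and 57.9 in LNCaP and 20.5, 33.2 and 48.7 in VCaP. SMCO3 averaged 61.4 in LNCaP and 40.3 in VCaP, and CACHD1 averaged 56.7 in LNCaP and 36.4 in VCaP. Intensities of SCRG1 were 55.8, 46.6 and 47.1 in LNCaP and 22.7, 14.99 and 21.4 in VCaP, so the whole gap lies among dim signals. APOBEC3G had the largest positive difference of all kept genes, 26.33 points, but 1 of its VCaP arrays ranked 62.8 beside 14.3 and 12.3, and it was not called (adjusted p 0.11). Leaving out 1 array at a time gave 1 to 14 higher genes, with 1 without LNCaP array C, 3 without LNCaP array A or B, 9 without VCaP array A and 14 without VCaP array B.

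On a scale that does not compress bright genes, more genes were higher in LNCaP. With log2 of intensity plus 16 made alike in distribution between arrays (quantile normalization) and a smallest difference of 1 log2 unit, 75 genes were higher (0.61% of genes tested) and 677 lower in LNCaP (5.5%). PEG3, an imprinted zinc finger gene, is an example: its intensities were 12253, 11941 and 11957 in LNCaP and 4900, 4587 and 4727 in VCaP, a difference of 1.36 log2 units, while its mean ranks were 99.7 in LNCaP and 98.5 in VCaP. On this scale the largest positive differences were those of PABPC5, at 1.91, HTR2C, at 1.84, and CHAC1, at 1.64. These 4 genes were chosen after their values were seen. HTR2C ranked 76.5, 77.2 and 77.9 in LNCaP and 46.3, 62.6 and 63.1 in VCaP.

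Shared highly ranked genes were far more numerous than restricted ones. At or above the 95th percentile in all 6 arrays stood 1482 of 12303 genes (12.05%). The 10 with the highest lowest rank were the mitochondrially encoded respiratory chain genes COX2, COX1 and ND4, the elongation factor EEF1A1 and the ribosomal proteins RPS16, RPS6, RPL7, RPL37A, RPLP1 and RPL41. RPS16, whose promoter is printed above, had intensities of 17615, 17921 and 17385 in LNCaP and 17795, 17753 and 17629 in VCaP. Of 51 ribosomal protein genes kept, 50 were shared, and so were 17 of 20 glycolytic and housekeeping genes. Neither list had a called gene, and their median differences were -0.0049 and 0.020 points. Outside these families the highest shared genes included TPT1, a translationally controlled protein, the nuclear noncoding RNA MALAT1, the ubiquitin ligase HUWE1, the nascent chain chaperone subunit NACA, polyubiquitin UBB, the initiation factor EIF1 and the G protein subunit GNAS. Among the 1258 shared genes with a promoter in the table (84.9%), 91.6% had an observed over expected CpG ratio over 0.6, compared with 81.7% of all genes tested.

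Some genes lower in LNCaP lie next to each other in the RefSeq gene order, given here as a description. The cystatin genes CST4, CST1 and CST2 on chromosome 20 were all called lower, as were MGP, ERP27 and ARHGDIB on chromosome 12 and BICC1, LINC00844 and PHYHIPL on chromosome 10. Probe sets of close relatives such as the cystatins can bind each other's transcripts, and CST2 was read by a probe set of the type that the maker marks as able to do so. Pairs included CEACAM5 and CEACAM6 on chromosome 19, CXCL10 and CXCL11 and also ALB and AFP on chromosome 4, and CDH2 and DSC3 on chromosome 18.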

How the data were processed

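The values are the intensities that the authors deposited, 1 per probe set and array, used as deposited; neither the labels nor the file headers used here state their background correction or scaling. Of 54675 probe sets, 41097 had 1 gene in the platform annotation, 1801 had several and 11777 had none; 42 of 19775 genes were not in the RefSeq gene table, and 0 symbols changed. There were 0 identical columns and 0 missing values. Ranks used average ranks for ties.

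Rank differences were fitted with limma 3.58.1 in R 4.3.3 (lmFit, eBayes with a variance trend), with Benjamini-Hochberg adjustment over the 27340 kept probe sets, two-sided; the fit was tested on simulated data. Errors after a difference are SE, others SD, with n = 3 arrays per line. Named genes were the 15 restricted genes with the widest difference, the 10 shared genes with the highest lowest rank and the 15 such outside ribosomal and housekeeping families, up to 3 called genes per list and direction, and ERG, ETV1, TMPRSS2 and KLK3; 2 further genes of that rule are not analysed here. Further names come from the lists or were added after values were seen. Members and lists were chosen with earlier results of these data known. Alternatives changed the scale, the limits, the filter, the probe set of a gene, the variance model and the arrays. With 3 arrays per line, precision is limited by their number.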

Additional observations from a re-analysis of the deposited data

How the results depend on the processing

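The count of 0 LNCaP-restricted genes held under every other limit, probe set rule and left-out array tried, except that 110 were counted when a gene needed only 50 in one line and under 50 in the other. Lower genes outnumbered higher ones in LNCaP except with no smallest difference, where 4369 were higher and 2901 lower. Genes higher in LNCaP, 5 in the report, numbered 13 on normal scores, 75 on quantile normalized log2 and 45 on log2 as deposited with a smallest difference of 1 log2 unit, 147 with 10 points, 0 with 40 points, 27 with no filter, 1 with a filter at 60, 2 with the mean of a gene's probe sets, 3 without probe sets marked for cross-hybridization, 3 with ranks over named probe sets, and 2 without a variance trend. Leaving out 1 array gave 1 to 14. Genes lower in LNCaP, 430 in the report, numbered 677 on quantile normalized log2, 758 on log2 as deposited, 659 with 10 points and 195 with 40 points, and 417 to 449 with 1 array left out. VCaP-restricted genes numbered 37 with limits of 80 and 40, 11 with 90 and 50, 417 with 50 and 50, and 88 to 95 with 1 array left out. Shared genes numbered 3029 from the 90th and 536 from the 98th percentile, 618 with the mean of a gene's probe sets, 747 without probe sets marked for cross-hybridization, and 1487 to 1497 with 1 array left out. MET, at -31.37 points in the report and -33.6 to 2.07 with 1 array left out, reversed without VCaP array A, B or C (2.07, 1.48 and 1.54 points), where another of its probe sets became the representative. The replicate letters did not pair the arrays (correlations of deviations -0.00094, 0.0048 and 0.0060), and the replicate block gave 5 higher and 430 lower genes and changed none of 79 named differences.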

Other observations

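A few bright genes, picked after their values were seen and so only described, had a higher intensity on all 3 LNCaP arrays than on any VCaP array while ranking above 93 in both lines. By rank, every LNCaP array was above every VCaP array for 41% of genes tested, so such separation is common. ASNS, asparagine synthetase, had intensities of 3425, 3543 and 3424 in LNCaP and 1596, 1699 and 1680 in VCaP, with mean ranks of 97.6 in LNCaP and 93.9 in VCaP. PSAT1, an enzyme of serine synthesis, had 4668, 4920 and 4183 in LNCaP and 2309, 2275 and 2267 in VCaP. SLC7A11, the cystine transporter, had 3386, 3496 and 3412 in LNCaP and 1726, 1808 and 1587 in VCaP.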
